A study of Danio rerio with 4 samples.

Results

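The genes described here are 10 genes of somite segmentation and left-right patterning, chosen by name: mespaa, mespab, her1, her7, dlc, tbx6, tbx16, msgn1, lft1 and lft2. They were read from 4 one-colour Agilent arrays of whole zebrafish embryos, with 1 array in each of 4 groups: 3.9 µM copper at 96 hours post fertilization (hpf), 0 µM copper (control) at 96 hpf, 3.9 µM copper at 24 hpf, and control at 24 hpf. All embryos came from natural spawning. The strain, the copper salt, the start of exposure and the number of embryos per array are not given in the sources used here. Through the accession of each probe, 9 of the 10 genes had probes, 19 in all, among 43569 probes and 13366 named genes on the arrays. No probe was named for mespab, so it was not analysed here. The genes were chosen with their signals and their detection on these arrays already known, so their own values are a description and carry no test.

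Somites, the blocks of mesoderm that give rise to axial muscle and vertebrae, are cut in turn from the presomitic mesoderm, which the tail bud feeds with new cells. A clock of Hairy-related repressors (her1, her7) and a Notch ligand (dlc) oscillates in these cells. T-box factors (tbx6, tbx16) and msgn1 act in their exit from the tail bud and in their identity, and mesp factors mark the next segment. Lefty proteins (lft1, lft2) antagonize the Nodal signals that set left and right in the brain and the heart. In zebrafish, segments form during the first day of development.

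Between 33505 and 36442 probes per array carried the scanner software's flag for a signal well above background, and no spot was saturated. The arrays differed in brightness at 24 hpf, with a median processed intensity of 366.4 for the copper label and 162.2 for the control label, but little at 96 hpf, with 190.2 and 194.4. Levels below are log2 intensities after quantile normalization over the 4 arrays. Of 18 markers of muscle, blood, photoreceptors, exocrine pancreas, hatching gland, neurons and epidermis, all 18 were well above background on each 96 hpf array and 14 on each 24 hpf array. The 4 dim ones were the opsins opn1lw2 and opn1sw1 and the pancreatic enzymes ctrb.1 and cel.1. Precision is limited by the number of arrays.

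The sample labels give the treatment opposite to the scanner file names and to the authors' deposited table. Of the probes that the authors' deposited table lists, 5555 of 5555 at 24 hpf and 2964 of 2964 at 96 hpf had the opposite sign to the difference taken by labels. Groups follow the labels here. If the file names are right, every copper sign below turns, while the age differences stay as they are.

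All 9 measured genes were lower at 96 hpf than at 24 hpf. For the brightest probe of each gene, both 96 hpf arrays lay below both 24 hpf arrays in 9 of 9 genes. Among all 12332 genes with a detected probe (one well above background on at least 2 of the 4 arrays), 40.3% had that order and 33.5% the opposite one. Since the genes were chosen on these values, nothing is read from the count. All 18 detected probes of the set had the same order. The median difference, 96 hpf minus 24 hpf, was -4.19 over the 9 genes and -0.10 over all genes. With dim genes set at the bounds explained below, it was -3.91 over the 9 genes. Because whole embryos were measured, fewer cells of a type and less RNA per cell cannot be told apart.

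**Figure D1:**
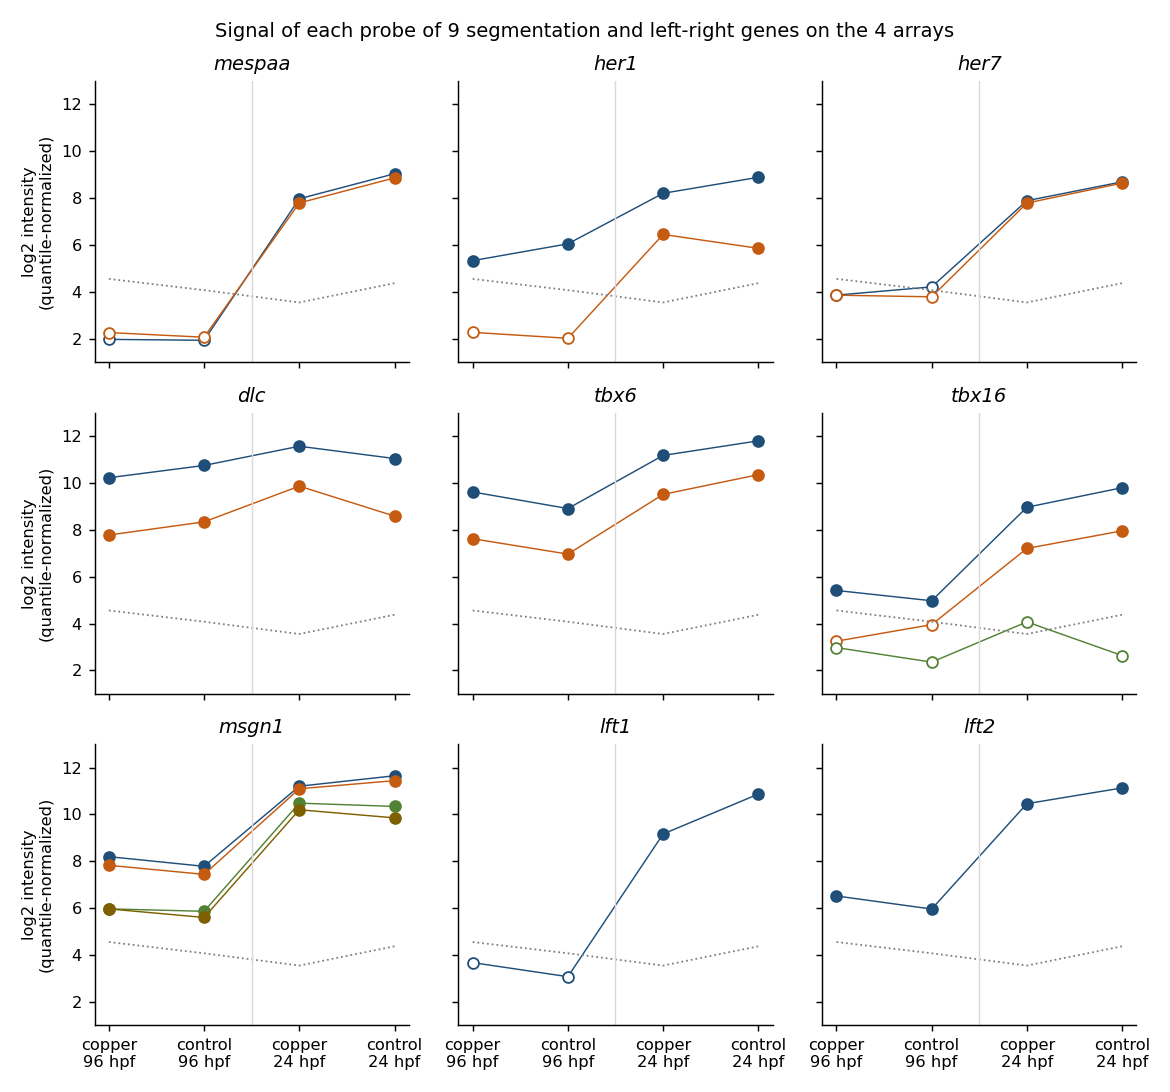
Log2 quantile-normalized intensity (vertical axis) of every probe of 9 genes on the 4 arrays (horizontal axis), with one colour per probe in each panel. Filled points are well above background and open points are not, lines join the values of one probe, and the dotted line is the lowest level among probes well above background on each array. The 96 hpf points of mespaa, her7 and lft1 are all open. Those of dlc lie close to their 24 hpf points on the arrays labelled control and further below them on those labelled copper.

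The clock repressors her1 and her7 lie next to each other in the RefSeq annotation of assembly GRCz12tu, with 0 genes between them. The brighter her7 probe had levels of 3.87 (copper label) and 4.22 (control label) at 96 hpf, against 7.89 (copper) and 8.70 (control) at 24 hpf. Neither 96 hpf value was well above background, so only a bound can be given. The bound sets the 24 hpf mean against the lowest level among well-measured probes on each 96 hpf array, or against the probe's own level where that is higher. By it her7 was at least 15.0-fold lower at 96 hpf, and at least 14.9-fold lower on its other probe. All such bounds hold for the processed intensity after quantile normalization only. With normexp background correction and its offset the log2 differences of the her7 probes were -2.19 and -2.22, smaller than the bounds.

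The brighter her1 probe had levels of 5.34 (copper) and 6.05 (control) at 96 hpf, against 8.21 (copper) and 8.89 (control) at 24 hpf. It was well above background on all 4 arrays and was 7.24-fold lower at 96 hpf. The other her1 probe, with 6.46 (copper) and 5.86 (control) at 24 hpf, was not well above background at 96 hpf and was at least 3.58-fold lower. With normexp the differences were -1.95 on the brighter probe and -1.08 on the other. A her1 signal above background at 96 hpf thus rests on 1 of its 2 probes.

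The Notch ligand dlc, which is also used in neurons and in the inner ear, showed the smallest age difference of the set. Its brighter probe had levels of 10.22 (copper) and 10.74 (control) at 96 hpf, against 11.56 (copper) and 11.04 (control) at 24 hpf. The highest 96 hpf level lay only 0.295 below the lowest 24 hpf level. The difference, 96 hpf minus 24 hpf, was -1.34 between the arrays labelled copper and -0.295 between those labelled control. On the other dlc probe it was -2.09 (copper) and -0.245 (control), and by the age means that probe was 2.24-fold lower. Of all genes, 2941 had a more negative age difference than dlc, against 360 for tbx6, 40 for tbx16 and 29 for lft2.

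The T-box factor tbx6, the gene of the fused somites mutant and formerly called tbx24, kept a signal well above background at 96 hpf. Its brighter probe had levels of 9.61 (copper) and 8.91 (control) at 96 hpf, against 11.17 (copper) and 11.79 (control) at 24 hpf, and was 4.67-fold lower at 96 hpf. Its other probe was 6.23-fold lower. The T-box factor tbx16, the spadetail gene, is needed for cells to leave the tail bud. Its brightest probe had levels of 5.41 (copper) and 4.97 (control) at 96 hpf, against 8.96 (copper) and 9.80 (control) at 24 hpf, and was 18.2-fold lower at 96 hpf. A second tbx16 probe was at least 9.59-fold lower, and the third was not well above background on any array and gives no fold. With normexp the log2 difference of the brightest tbx16 probe was -2.73, against -4.19 without it. On the second probe it was -1.71 with normexp, smaller than the bound.

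The bHLH factor msgn1, which works beside tbx16 in tail bud exit, had 4 probes, each well above background on all 4 arrays. Its brightest probe had levels of 8.20 (copper) and 7.79 (control) at 96 hpf, against 11.21 (copper) and 11.65 (control) at 24 hpf. The 4 probes were 10.8-fold to 22.5-fold lower at 96 hpf, and in each of them both 96 hpf arrays lay below both 24 hpf arrays. With normexp their log2 differences lay between -3.10 and -3.48.

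The segment factor mespaa was not well above background at 96 hpf. The probe of higher mean level had levels of 2.27 (copper) and 2.07 (control) at 96 hpf, against 7.80 (copper) and 8.87 (control) at 24 hpf, and was at least 16.2-fold lower at 96 hpf. Its rank rests on the dim 96 hpf values, since the second probe was the brighter at 24 hpf, with 7.98 (copper) and 9.04 (control). The second probe was at least 18.3-fold lower. With normexp the log2 differences were -2.45 on the first probe and -2.80 on the second, smaller than these bounds. The authors' deposited table places these 60-base probes on chromosome 7 of Zv9, at 16100971 to 16101030 and 16100988 to 16101047. They share 43 bases and so come close to being repeats of one measurement.

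The Nodal antagonists differed in detection. The only lft1 probe had levels of 3.68 (copper) and 3.08 (control) at 96 hpf, against 9.17 (copper) and 10.87 (control) at 24 hpf. It lies on chromosome 20 from 35098626 to 35098685 (Zv9, authors' deposited table). It was not well above background at 96 hpf and was at least 52.0-fold lower than at 24 hpf, the largest bound of the set. With normexp its log2 difference was -3.67, smaller than that bound. The only lft2 probe had levels of 6.52 (copper) and 5.97 (control) at 96 hpf, against 10.46 (copper) and 11.13 (control) at 24 hpf. It was well above background on all 4 arrays and was 23.5-fold lower at 96 hpf, with a log2 difference of -4.55, or -3.71 with normexp. Those not well above background at 96 hpf were thus mespaa, her7 and lft1, or 3 of 9, beside 1.57% of all genes. Detection at 96 hpf belongs to the way the set was chosen, so nothing is read from that count.

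Tissue markers also differed between the ages. The muscle regulators myod1 and myog, which young somites express, both differed by -2.03 between 96 and 24 hpf, and the muscle light chain mylpfa by 0.29. Over all 18 markers the differences ran between -7.17 (hbbe3, an embryonic globin) and 13.14 (opn1lw2), with 8 below 0. The value of opn1lw2 rests on dim 24 hpf signals, so its size is not a measured one. Their part in the age differences of the set was not tested.

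To place the set in its pathway, 58 other genes of the same processes were listed, of which 50 had a detected probe. These lists were chosen with earlier results of these data known. The calls below therefore describe the listed genes and give no independent support. An additive fit of age and copper label in limma, adjusted by Benjamini-Hochberg over all 36026 detected probes, called 27 of the 50 lower and 0 higher at 96 hpf at an adjusted p under 0.05. Over all detected probes 15.7% were called lower and 14.9% higher. These are shares of probes, while the 50 are genes, each given by its brightest detected probe. Without the filter on dim probes the limma fit called 16 of the 50 lower. At an unadjusted p under 0.05 the limma fit gave 29 lower and 0 higher. The median difference of the 50 genes was -1.35, beside -0.10 over all genes. Both 96 hpf arrays lay below both 24 hpf arrays in 37 of 50, beside 40.3% of all genes. The fit has 1 residual degree of freedom. With 1 array per group, this is the change of the copper difference between the ages. Its p-values rest on that change, pooled over probes, and not on a spread between repeat arrays. That change takes in any copper effect that differs between the ages, and technical variation cannot be told apart from it. Nothing says that the arrays held separate clutches.

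**Figure D2:**
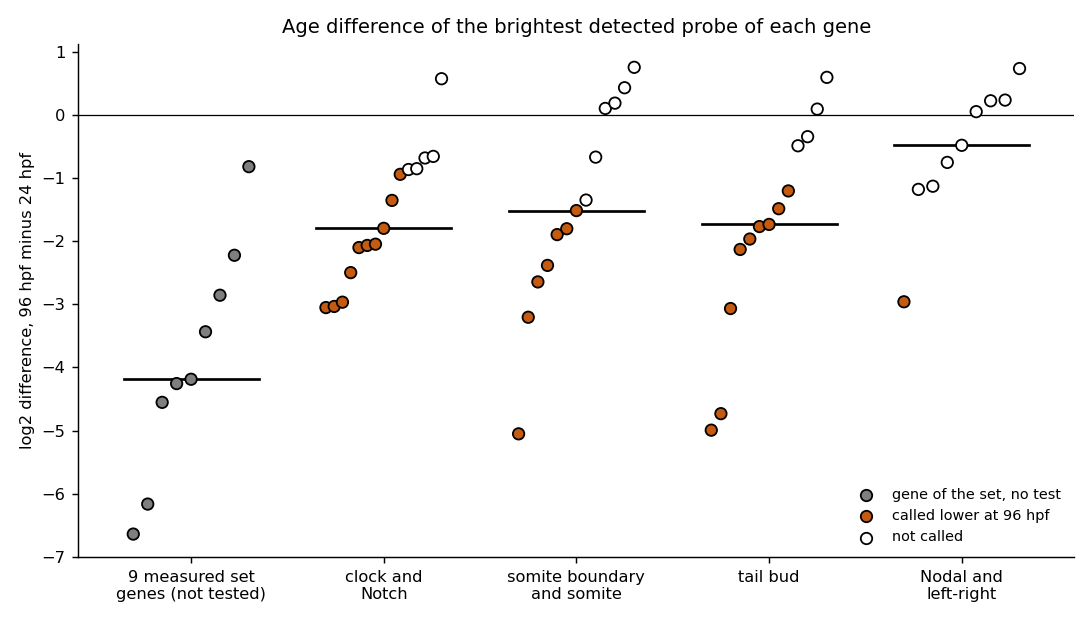
Log2 difference, 96 hpf minus 24 hpf (vertical axis), of the brightest detected probe of each gene, for the 9 measured genes of the set and for 4 lists of other pathway genes (horizontal axis). Orange points were called lower by limma, white points were not called, grey points were not tested, and bars are medians. The points of mespaa, her7, lft1, mespbb and ndr1 are drawn at 96 hpf values that were not well above background on either array. The median is -4.19 for the 9 genes and lies between -1.80 and -0.48 for the lists.

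Genes of the clock and of Notch signalling were called lower in 10 of 15 measured cases, beside 15.7% of all detected probes. The other 5 were not called. The repressor her11, a relative of her1, had a fitted difference of -3.03 (SE 0.52, limma adjusted p = 0.00183), but it was not well above background on the 96 hpf array labelled copper, and with normexp the difference was -1.39. The repressor her12 differed by -2.97 (SE 0.42, limma adjusted p = 0.000653). The Notch feedback gene nrarpb differed by -3.05 (SE 0.69, limma adjusted p = 0.00846), and lfng, a glycosyltransferase that modifies Notch, by -1.35 (limma adjusted p = 0.00302). With normexp nrarpb differed by -2.17. The ligand dld, a partner of dlc in the clock, differed by 0.57 and was not called (limma adjusted p = 0.121).

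Genes of the somite boundary and the young somite were called lower in 7 of 13 cases, beside 15.7% of all detected probes. The other measured mesp genes were among them. For mespbb the fitted difference was -5.05 (limma adjusted p = 0.00018), but its 96 hpf signal was not well above background, and it was at least 7.76-fold lower there. For mespba it was -2.38 (SE 0.56, limma adjusted p = 0.00991). The boundary genes ripply1 and ripply2, which switch off mesp genes, differed by -2.65 and -3.20, and the myogenic factor myf5 by -1.52, all of them called. With normexp the differences were -1.76 for mespbb, smaller than its bound, -1.30 for mespba and -2.06 for ripply2. The retinoic acid enzyme aldh1a2 differed by 0.19 and the forkhead factor foxc1a by 0.10, and neither was called.

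Tail bud genes were called lower in 9 of 13 cases, beside 15.7% of all detected probes. The homeobox gene vox differed by -4.99 (SE 0.46, limma adjusted p = 4.94e-05) and cdx4 by -4.73 (SE 0.48, limma adjusted p = 8.98e-05). Tbx16l, a T-box gene close to tbx16, differed by -3.07 and the brachyury gene tbxta by -1.97. The ligands wnt8a and fgf8a differed by -2.13 and -1.49, and these 4 were called as well. With normexp the differences were -4.16 for vox, -3.91 for cdx4 and -1.09 for wnt8a.

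Among Nodal and left-right genes 1 of 9 was called lower, beside 15.7% of all detected probes, a share of probes and not of genes. The median difference of the 9 was -0.48. The gene called lower was tdgf1, the Nodal co-receptor, at -2.96 (SE 0.47, limma adjusted p = 0.00119). The ciliary factor foxj1a differed by -1.13 and was not called (limma adjusted p = 0.055). The Nodal ligands ndr2 and southpaw and the antagonist dand5 had probes, but none was well above background on 2 or more arrays. The ligand ndr1 was not well above background at 96 hpf and was at least 1.31-fold lower there (limma adjusted p = 0.373, not called). With normexp its log2 difference was -0.23, smaller than that bound.

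By their centred profile over the 4 arrays, the 5 genes nearest to the median profile of the set among 11821 candidates were zp3.1, npm2b, zp2.6, zp3 and prtga, at Euclidean distances of 0.22 to 0.51. The zp genes encode egg coat proteins and npm2b an oocyte nucleoplasmin, and prtga is a protogenin homologue. Their differences between 96 and 24 hpf ran from -4.09 to -3.82, and npm2b was not well above background at 96 hpf. The zp genes form a family whose copies may share probe signal. Candidates were genes outside the set that were well above background on both 24 hpf arrays. The median profile of the set takes in the dim 96 hpf values of mespaa, her7 and lft1. The likeness is taken over 4 arrays only and is a description.

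After normalization, 8 of 9 genes of the set lay below 0 for the copper label at 24 hpf by the probe of highest mean level, a side on which 71.1% of all genes lay, and dlc lay above. Without normalization 2 of 9 lay below 0 and the median of the set was 0.12. The median difference, copper minus control, was -0.68, beside -0.27 over all genes. Past 2-fold, 2 genes were lower (mespaa and lft1) and 0 higher, against 5.91% and 3.11% of all genes. Among the 18 detected probes of the set, 13 lay below 0, 3 were lower and 1 higher by 2-fold or more. Among all detected probes 57.0% lay below 0, 5.93% were lower and 8.73% higher by 2-fold or more, or 2056 and 3028 probes, and 75th-percentile scaling turned that split to 826 lower and 4742 higher. With 1 array per group there is no test.

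The largest difference was that of lft1, at 3.25-fold lower for the copper label. Its processed intensity before normalization was 962.1 for the copper label and 1783 for the control label, so the direction was already in the scanner values. For mespaa the scanner values were nearly equal, at 377.02 for the copper label and 377.57 for the control label on the probe of higher mean level, and at 427.93 (copper) and 427.74 (control) on the other. The difference of -1.07 for mespaa therefore appears on normalization between the arrays. It was -0.77 under 75th-percentile scaling and -0.86 with normexp background correction. The gene was lower relative to the other probes of its array and level in unscaled signal. Without normalization the median of all genes was 0.49.

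**Figure D3:**
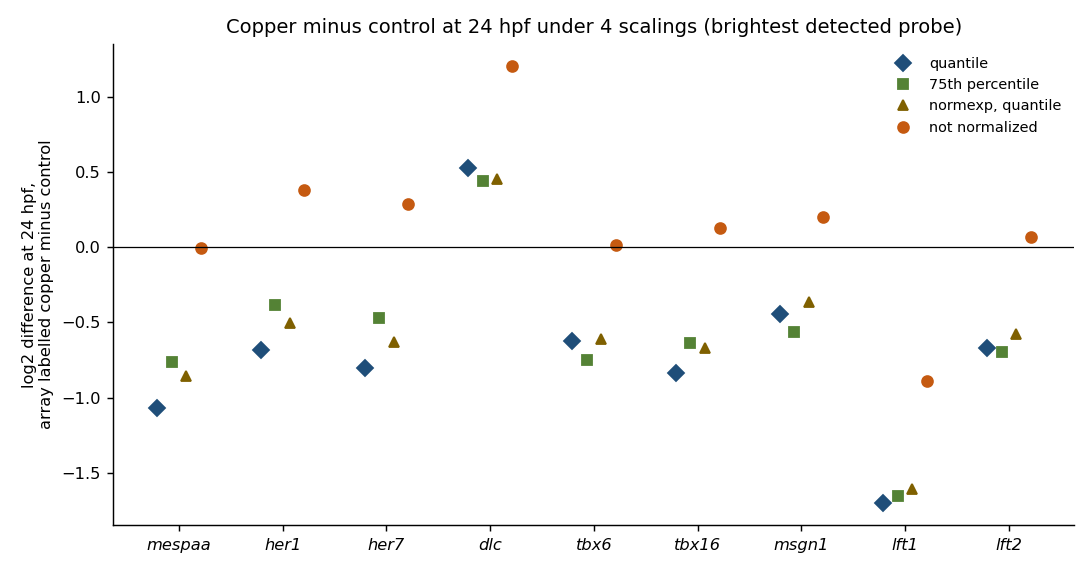
Log2 difference at 24 hpf, array labelled copper minus array labelled control (vertical axis), of the brightest detected probe of 9 genes (horizontal axis) under 4 scalings. Under the 3 normalized scalings 8 genes lie below 0 and dlc above, while without normalization mespaa and tbx6 lie at 0 and lft1 alone is clearly below.

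The clock repressors and T-box factors differed by less than 2-fold at 24 hpf. The brightest probes differed by -0.68 for her1, -0.81 for her7, -0.62 for tbx6 and -0.83 for tbx16, and lft2 differed by -0.67. Without normalization these 5 genes lay above 0, between 0.014 for tbx6 and 0.38 for her1. Both her7 probes, both tbx6 probes and both detected tbx16 probes lay on one side, but the other her1 probe was at 0.59. The 4 msgn1 probes lay on both sides, at -0.45 and -0.35 for the brighter pair and 0.14 and 0.35 for the dimmer pair.

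The ligand dlc was higher for the copper label on both probes and under all 4 scalings. Its processed intensity was 4671 for the copper label and 2024 for the control label on the brighter probe, and 1543 (copper) and 301.4 (control) on the other. The normalized differences were 0.52 and 1.28, the second being 2.43-fold. The dimmer dlc probe lies on chromosome 15 from 19426210 to 19426269 (Zv9, authors' deposited table). The authors' deposited table lists this probe at -1.28, both mespaa probes at 1.07 and lft1 at 1.70 at 24 hpf, as log2 of the array named copper over the array named control.

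**Figure D4:**
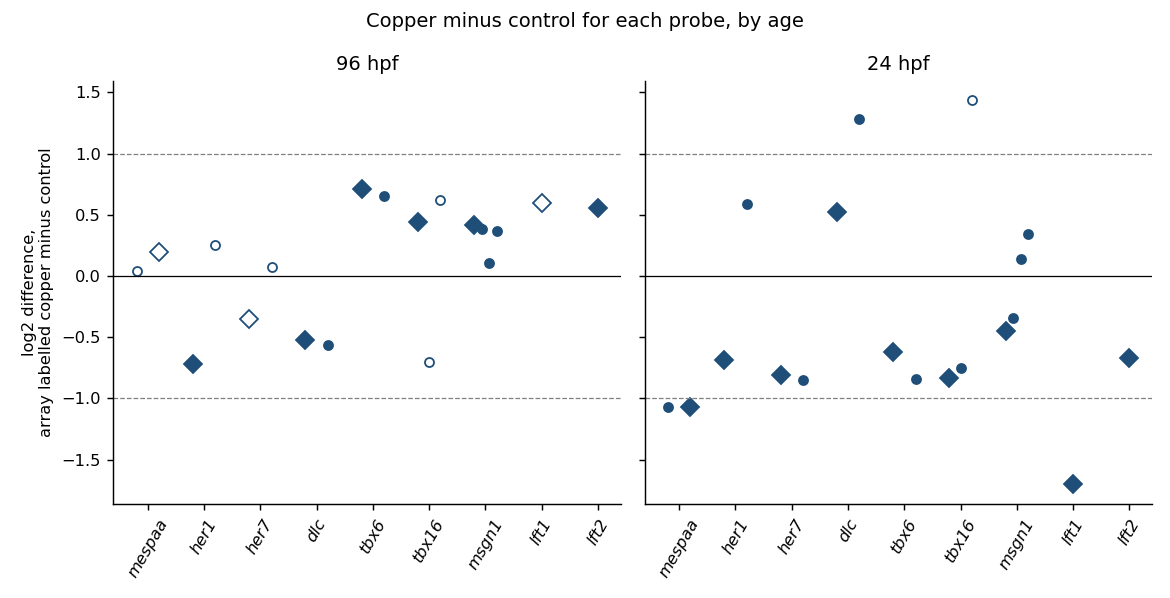
Log2 difference, array labelled copper minus array labelled control (vertical axis), of every probe of 9 genes (horizontal axis) at 96 hpf and at 24 hpf. Diamonds are the brightest detected probe of a gene, circles its other probes, open symbols were not well above background on one or both arrays, and dashed lines mark 2-fold. At 24 hpf the filled symbols of mespaa and lft1 pass the lower line and that of the dimmer dlc probe the upper one. An open tbx16 symbol also passes the upper line there. At 96 hpf no filled symbol passes either line.

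Of the 50 other pathway genes, 5 were lower and 6 higher by 2-fold or more for the copper label at 24 hpf, beside 5.91% and 3.11% of all genes, and their median difference was -0.30. Those lower were mespba (2.32-fold), mespbb (2.11-fold), ripply2 (2.64-fold), wnt8a (2.79-fold) and ndr1 (2.23-fold). Of these, ripply2 was lower on 3 of 3 detected probes and mespba on 2 of 2, and the others had 1 each. The levels of ndr1 at 24 hpf were low, at 4.13 (copper) and 5.28 (control). Differences without normalization between arrays are not given for these genes, so the part of normalization in them is not shown. The count lower by 2-fold or more was 3 under 75th-percentile scaling (ripply2, wnt8a and fgf8a) and 1 with normexp (ripply2). Under 75th-percentile scaling mespba was at -0.85, mespbb at -0.70 and ndr1 at -0.74. With normexp they were at -0.89, -0.77 and -0.37.

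The genes higher at 24 hpf were the Notch feedback gene nrarpb (4.04-fold), the ubiquitin ligase mib1, which activates Delta ligands (2.39-fold), the receptor notch1a (2.05-fold), the ephrin receptor epha4a (2.69-fold), wnt5b (2.15-fold) and the activin receptor acvr1ba (2.40-fold). For mib1 all 3 probes were higher. The other notch1a probe was at -0.33, the other wnt5b probe at 0.076 and the other nrarpb probes between 0.045 and 0.83. The other epha4a probes were at -0.52 and 1.44. The count higher by 2-fold or more was 6 under 75th-percentile scaling, with notch1a at 0.91 and notch3 at 1.01. With normexp it was 4, with notch1a at 0.95 and wnt5b at 0.68. Genes past 2-fold are counted by their brightest detected probe only. For lfng that probe was at -0.28, but its other detected probes were at 1.14 and 3.56. Another probe was at 1.14 for her4.1, 1.04 for hes6 and 1.03 for fgf4. On the lower side another probe was at -1.32 for foxh1 and -1.09 for cdx1a. These values of other probes are plain differences without bounds. Their detection at 24 hpf is not given here, so some may rest on dim signals. The muscle regulators myod1 and myog differed by -0.41 and -0.40 at 24 hpf, and mylpfa by -0.013. Over the 14 tissue markers well above background the differences ran between -0.80 (rho) and 0.60 (elavl3). Their part in these results, and that of the brightness gap between the arrays, was not tested.

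At 96 hpf 6 genes could be compared between the labels, and 0 reached 2-fold in either direction, beside 1.69% of all genes lower and 5.56% higher. The differences, copper minus control, were 0.71 for tbx6, 0.56 for lft2, 0.44 for tbx16 and 0.41 for msgn1. They were -0.52 for dlc and -0.72 for her1. With normexp they were 0.58 for tbx6, 0.31 for lft2, 0.13 for tbx16, 0.37 for msgn1, -0.60 for dlc and -0.18 for her1. Without normexp the median over these 6 genes was 0.43, beside -0.051 over all genes, of which 55.9% lay below 0. Of the 11 probes measured on both 96 hpf arrays, 3 lay below 0 and 0 passed 2-fold, beside 57.8% of all detected probes below 0, 2.14% lower and 5.08% higher by 2-fold or more.

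Both tbx6 probes and all 4 msgn1 probes lay above 0 at 96 hpf, and both dlc probes below. The tbx16 and her1 values rest on 1 well-measured probe each. The processed intensity of tbx6 was 650.9 for the copper label and 414.9 for the control label, a gap close in size to the normalized one.

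Of the 46 other pathway genes measured at 96 hpf, 1 was higher and 3 lower by 2-fold or more for the copper label, beside 5.56% and 1.69% of all genes. The higher one was cdx4 (2.46-fold), and the lower ones were vox (2.86-fold), nrarpb (2.32-fold) and her12 (2.03-fold). For nrarpb 3 of 5 detected probes had that sign, against 3 of 3 for vox and 2 of 2 for cdx4, and her12 had 1. With normexp 0 of the listed genes passed 2-fold. Some tissue markers differed between these arrays far more than the set did, from -6.17 (hbbe3) and -4.38 (the hatching enzyme he1.1) to 4.50 (the chymotrypsinogen ctrb.1). Others did not, among them the muscle markers myod1 (-0.015), myog (-0.39) and mylpfa (-0.095). The part of the tissues in the differences of the set was not tested.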

How the data were processed

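Per the file headers and the series' design text, the scanner output deposited for each array gives intensity per spot from Agilent Feature Extraction 11.0.1.1, before any normalization between arrays. Per the same text the authors quantile-normalized them with GeneSpring GX 11.5.1, required a detection flag on 2 or more arrays, and filtered by fold change. The authors' deposited table gives log2 fold changes of listed probes, with coordinates on Zv9, and 16 of its columns of per-sample values were not used.

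Here log2 processed intensity was averaged over the spots of a probe, without control or outlier spots, which kept 43569 of 43603 probes, and was quantile-normalized. The lowest processed values are software surrogates, so dim values have no order. Probes were named through RefSeq accessions (table of assembly GRCz12tu, names only): 25957 were named and 17612 were not. A gene is given by its detected probe of highest mean level. Differences carry no test, except age for genes outside the set, fitted with limma 3.58.1 (R 4.3.3, lmFit, eBayes with trend, Benjamini-Hochberg). The fit was also run on simulated data whose spread was drawn from its own fitted variances. Such data cannot show how well the calls hold on these arrays. Python 3.11.15, pandas 2.3.3 and numpy 2.4.6 were used.

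Alternatives were 75th-percentile scaling, normexp (offset 50) on median spot and background intensity, other filters, the mean of probes, each label alone, eBayes without trend and age alone. Scanner values without normalization were added after the data were seen. The members and lists were chosen with earlier results of these data known. Named genes are the 10 members, genes of the 4 pathway lists, the tissue markers and the 5 nearest profiles. The median SD among repeat spots was 0.06 to 0.12 in log2 and covers printing and scanning error only.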

Additional observations from a re-analysis of the deposited data

Results flagged for a closer look

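For 5 genes well above background on all 4 arrays, the difference between the arrays labelled copper and control had opposite signs at the ages under quantile, 75th-percentile and normexp scaling. By the mean of probes tbx16 lay below 0 at both ages, at -0.13 at 96 hpf and -0.79 at 24 hpf. With 1 array per group the contrast between ages was not tested, and the values given are the difference at 96 hpf minus that at 24 hpf, each being copper minus control on the log2 scale. They were 1.33 for tbx6, 1.27 for tbx16, 1.23 for lft2 and 0.86 for msgn1, which were higher with the copper label at 96 hpf and lower at 24 hpf. For dlc the value was -1.05, lower at 96 hpf and higher at 24 hpf. The msgn1 value rests on its brightest probe, and its 2 dimmer probes were above 0 at both ages. Without normalization between arrays tbx6, tbx16, lft2 and msgn1 lay above 0 at both ages, and dlc alone kept opposite signs, at -0.53 at 96 hpf and 1.21 at 24 hpf.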

How the results depend on the processing

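No paired analysis was possible because each group holds 1 array and all carry the replicate number 1. All 9 genes were lower at 96 hpf under each alternative run. Their median age difference was -3.95 under 75th-percentile scaling, -2.45 with normexp, -3.55 within the arrays labelled copper and -4.48 within those labelled control. Scaling by the 75th percentile moved the median age difference of all genes to -0.0008, against -0.10. Without normalization the median at 24 hpf turned to 0.12, with her1 at 0.38, her7 at 0.29, msgn1 at 0.20, tbx16 at 0.12, lft2 at 0.065 and tbx6 at 0.014, while all genes moved to a median of 0.49. At 96 hpf the median was 0.22 with normexp and 0.092 by the mean of probes, where tbx16 turned to -0.13. That mean takes in probes of tbx16 and her1 that were not well above background at 96 hpf. With no filter limma called 2635 probes lower with age, against 5670, and 16 pathway genes, against 27. Probes past 2-fold on the 24 hpf array labelled copper numbered 3028 higher and 2056 lower, 4742 and 826 under 75th-percentile scaling, and 1726 and 482 with normexp, and 3 and 1 pathway genes were then lower, against 5. At 96 hpf 1740 probes were higher and 733 lower, 1109 and 287 with normexp, and 1675 were lower without a filter. Pathway genes past 2-fold were then 0 higher and 0 lower with normexp and 5 lower without a filter, against 1 higher and 3 lower. The cause of these shifts was not tested. Levels near background limit mespaa, her7 and lft1 at 96 hpf to bounds.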
